A study of Mus musculus with 20 samples.

Results

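Spleen macrophages of old and young wild-type mice were compared: 4 libraries from mice of 24 months against 2 from mice of 3 months, 6 of the 20 libraries in the series. The libraries were taken by the tissue, age and genotype in their labels. All mice were male. Cells were sorted by flow cytometry as positive for F4/80 and CD11b, surface proteins of mouse macrophages, of which CD11b is also carried by monocytes and granulocytes. The other libraries used here were 3 of 24-month Nlrp3-/- spleen, which lack an inflammasome sensor and helped to estimate the spread, and 7 of wild-type visceral adipose tissue (VAT), 3 at 3 months and 4 at 24 months. The labels name no transgene or Cre in these groups. The labels do not tie libraries to single animals, pools, litters or colonies, so p-values measure only the spread between libraries, which may be technical.

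In the spleen, red pulp macrophages take up aged red cells and recycle their iron, while monocytes and neutrophils pass through or wait in the same tissue. Cells of this kind sense microbes through Toll-like, lectin and nucleotide-sensing receptors, answer type I interferon with a set of antiviral genes, and show peptides to T cells on MHC class II. The title of the series names breakdown of catecholamines by macrophages, driven by the inflammasome, in ageing, and the spleen comparison gives these genes in a second tissue.

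Values are normalised read counts, the gene counts scaled by the depositors to a common library size. The wild-type spleen libraries held 27.3 to 32.8 M recovered reads. A count of 3 reads, about the 95% upper limit of the mean when 0 reads are seen, corresponded to 2.54 to 3.25 normalised counts. The 3-month library of replicate 1 stood apart. On the first principal component of the 2000 most variable genes, which held 23.2% of their variance, it lay at -108.9, replicate 2 of the same age at -14.9 and all 24-month libraries between 12.6 and 22.5. Results are therefore also given without it, from a fit in which the single remaining young library is assumed to vary like the other groups. Adgre1, which encodes F4/80 and is named here for the gate, stood at 9962 and 6000.4 in the 3-month libraries and 9578, 8604, 8765 and 9641 in the 24-month libraries, and its groups overlapped. Itgam, which encodes CD11b, stood at 9349.9 and 10258 and fell to 4945, 5906, 3965 and 4359. The 17 neutrophil markers summed to 780 and 990 kilocounts (normalised counts with the metric prefix kilo) at 3 months and 221 to 449 kilocounts at 24 months, and the 14 general macrophage markers to 387 and 334 kilocounts against 191 to 268 kilocounts. Markers that define another cell type were thus present throughout.

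Called genes of neutrophils, innate sensing, chemotaxis and the interferon response were lower in spleen macrophage libraries at 24 months, and those of MHC class II and plasma cells were higher. Of 13053 genes tested, 650 (4.98%) passed, 246 higher (1.88%) and 404 lower (3.10%) at 24 months, by limma with Benjamini-Hochberg adjustment at an adjusted p under 0.05. Under quantile normalisation the split was 266 higher and 277 lower. Groups did not overlap for 648 of the 650 genes and for 28.6% of all genes tested. Where groups do not overlap, leaving out a library cannot reverse the direction, so a kept direction is no separate evidence. The fall in the number of calls without 3-month replicate 1 was large: 69 genes (0.531%) passed, 61 of them among the 650, although all 650 kept their direction. Without replicate 2 679 genes passed, 404 higher and 275 lower, of which 358 were among the 650. Replicate 1 was the young library farther from the 24-month mean for 422 of the 650 genes and for 7098 of all genes tested. Genes read at 1, the lowest value in the table, in replicate 1 but above 10 in replicate 2 numbered 357, and the reverse case 197.

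**Figure D1:**
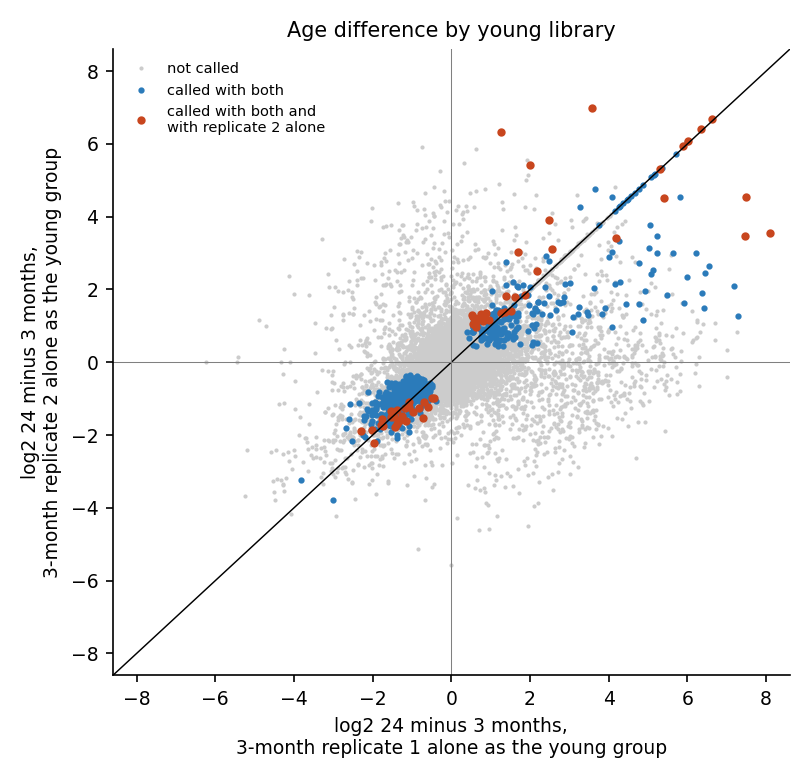
Log2 difference between 24 and 3 months for each gene, with 3-month replicate 1 alone as the young group on the horizontal axis and replicate 2 alone on the vertical axis. The diagonal marks equality. Genes whose groups do not overlap, 648 of the 650 called, must have the same sign on both axes. Of the 650 genes called with both young libraries (blue and red), 61 (red) were also called with replicate 2 alone, and all lie in the quadrants where both differences have the same sign.

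A core of 39 genes passed in the main fit and in every one of the 15 alternatives in which they were tested, 21 higher and 18 lower. The gene with the smallest p was C130026I21Rik (chr1:84992690-85270566, mm10), a relative of the Sp140 nuclear body genes. It stood at 52.0 and 96.2 in the 3-month libraries and at 1878, 2423, 1799 and 3072 in the 24-month libraries. Every 24-month library lay far above both 3-month libraries. Its log2 difference was 4.96 (SE 0.30; limma, adjusted p = 8.14e-07, from 5.54e-51 to 0.000103 over the alternatives) and 4.53 without 3-month replicate 1. Its neighbour A530032D15Rik, named here after its values were seen because its span lies inside that of C130026I21Rik, rose from 397 and 351 to 972, 1070.2, 1343 and 1552. The copies in this cluster are alike in sequence, so the division of reads among them is uncertain.

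Slc3a2 (chr19:8706882-8723369), the heavy chain of CD98 that carries amino acid transporters to the cell surface, rose from 2987 and 2972 to 7727, 6611, 8071 and 8767. Its 2 young libraries were nearly equal, and every 24-month library was higher (log2 1.38, SE 0.15; limma, adjusted p = 0.000408). Sdc1 (chr12:8771323-8793715), the syndecan CD138 used as a plasma cell marker, rose from 342 and 233 to 2979, 1267, 2114 and 2032 (log2 2.83, 3.10 without 3-month replicate 1; limma, adjusted p = 0.000408). Kit, the receptor for stem cell factor, rose from 514 and 483 to 1136, 1147, 1326 and 1326. In these genes no 24-month library reached down to the young level, and the old libraries of Sdc1 varied most.

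Of the genes of this core that fell, Emb (chr13:117208536-117274415), embigin, a partner of monocarboxylate transporters, dropped from 12736 and 11521 to 5036, 4493, 4495 and 3882 (log2 -1.44, SE 0.15; limma, adjusted p = 0.000408). Cdkn1b, the cyclin-dependent kinase inhibitor p27, fell from 5823 and 5090.4 to 2416, 1912, 1863 and 1956. Fosl2, a subunit of the AP-1 transcription factor, fell from 3900.4 and 3928 to 1196, 1454, 1168 and 928. All 3 were lower in each 24-month library than in either young one. Ssh2, a phosphatase that activates cofilin, fell by 1.34 on the log2 scale, Gda, guanine deaminase, by 1.54 and Nudt4, a diphosphoinositol phosphatase, by 2.10.

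**Figure D2:**
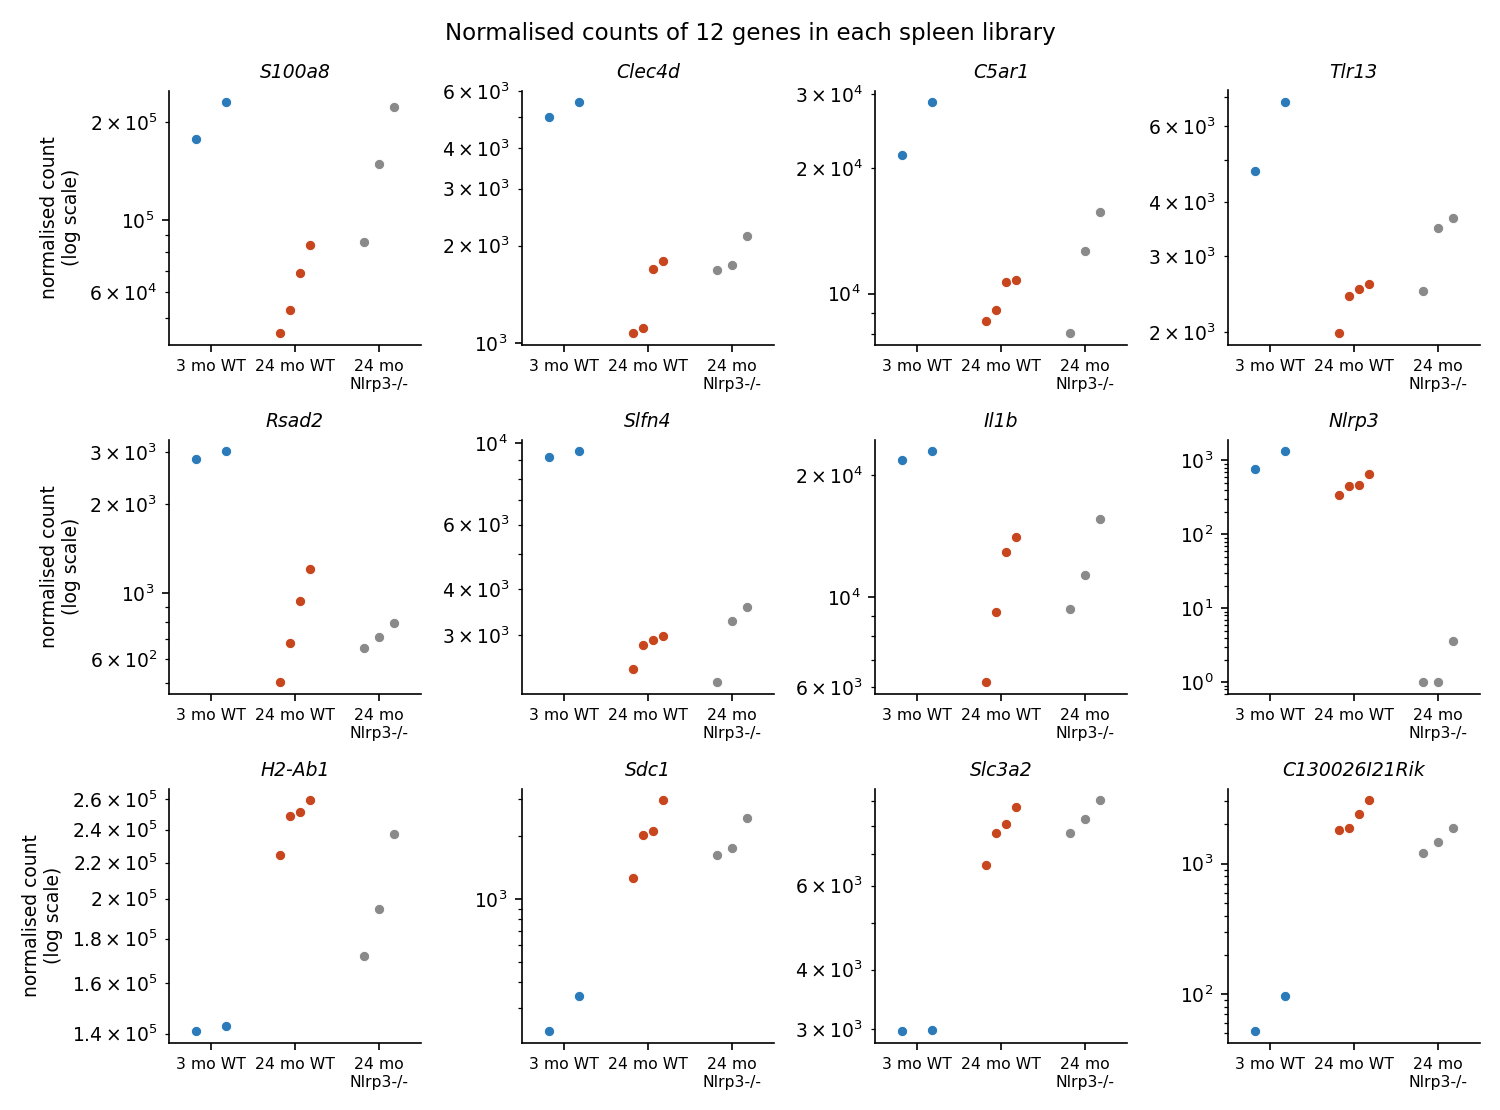
Normalised counts (log axis) of 12 genes in each spleen library, with 2 libraries at 3 months (blue), 4 at 24 months (red) and 3 of Nlrp3-/- mice at 24 months (grey), sorted by value within a group. In every panel the wild-type groups do not overlap, with Slc3a2 at 2987 and 2972 in the young libraries and from 6611 upward in the old ones, and Nlrp3 in the Nlrp3-/- libraries stands at 1 to 3.61.

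Neutrophil genes were lower at 24 months. Of 17 markers tested 10 fell and 0 rose, against 3.10% of all genes that fell, and the median log2 difference was -1.26, against 0.03 over all genes tested. S100a8 (chr3:90668978-90670035), a calcium-binding alarmin of neutrophils, stood at 177182 and 229948 at 3 months and 84104, 52927, 44984 and 68942 at 24 months (log2 -1.73, SE 0.32; limma, adjusted p = 0.00827). Every old library lay well below both young ones. Cxcr2, the receptor for neutrophil-attracting chemokines, fell from 30900.2 and 19186 to 9466, 8005, 5121 and 5299, and Csf3r, the receptor for granulocyte colony-stimulating factor, from 44304 and 39852 to 22388, 19454, 12609 and 13192. Mmp9, a gelatinase of neutrophil granules, fell by 1.25 on the log2 scale (-1.41 without 3-month replicate 1). Without that library the list's median was -1.37 and 0 members passed. In a bulk library, fewer cells of a type and less RNA per cell cannot be told apart, and the part of neutrophil RNA in the falls described below was not tested. In the Nlrp3-/- libraries of the same age the neutrophil sum was 421 to 1207 kilocounts, a range that takes in both young libraries.

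**Figure D3:**
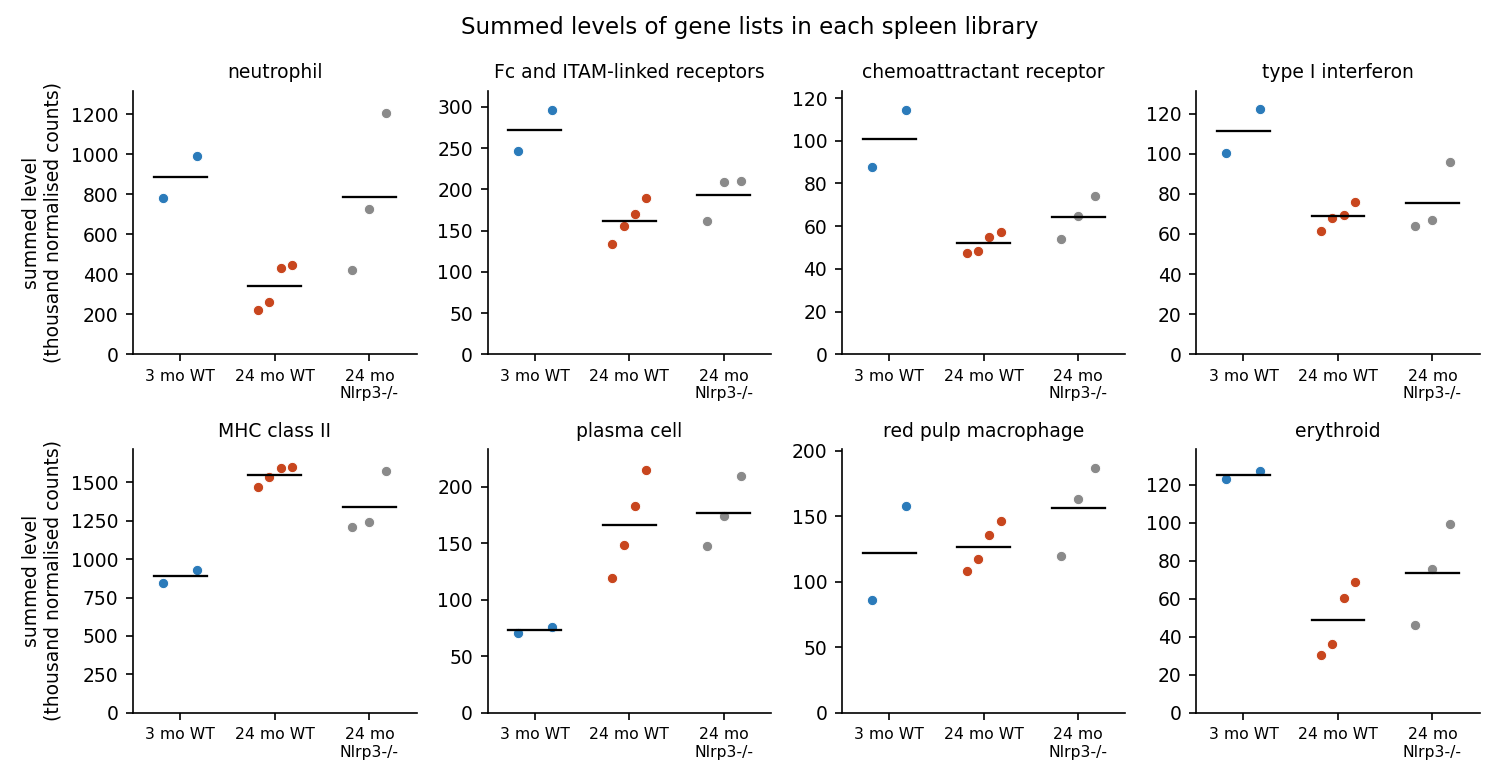
Summed normalised counts, in kilocounts, of the members of 8 gene lists in each spleen library (points) with the group mean (line), in axes that start at 0. Neutrophil, receptor, interferon and erythroid list sums are lower in each 24-month than in each 3-month wild-type library, MHC class II and plasma cell sums higher, and red pulp macrophage sums overlap.

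Of 20 genes of a list of Fc and ITAM-linked receptors, their adaptors and paired inhibitory receptors, 10 fell and 0 rose (median log2 -0.87). Of all genes tested 3.10% fell. The summed level was 297 and 247 kilocounts at 3 months and 134 to 189 kilocounts at 24 months. Tyrobp (chr7:30413760-30417585), the DAP12 adaptor of many such receptors, fell from 69094 and 63865 to 38320.5, 35586, 31038 and 23862 (log2 -1.07, SE 0.20; limma, adjusted p = 0.00806). Clec4d (chr6:123262111-123275265), a C-type lectin for mycobacterial and fungal glycolipids, fell from 5553 and 5009.6 to 1788, 1694, 1114 and 1074. The groups lay far apart, and Clec4d was the only 1 of the 20 genes still called without 3-month replicate 1 (log2 -1.86). Trem1, an amplifier of inflammatory signals that also stands among the neutrophil markers, fell from 3909 and 2367 to 1324, 1210.5, 1000.3 and 1597, and Pilra, an inhibitory receptor, from 22900.2 and 16932 to 12488, 10928, 10059 and 8602.

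Receptors for chemoattractants included 5 of 17 that fell and 0 that rose, against 3.10% of all genes that fell, with a median log2 of -0.16. C5ar1 (chr7:16246743-16259540), the receptor for the complement fragment C5a, stood at 28747 and 21515 and then at 10754, 10682, 8585 and 9127 (log2 -1.35, SE 0.22; limma, adjusted p = 0.00402). C5ar2, the second C5a receptor, which is not among the 17 genes, fell from 5328 and 3089 to 1409.8, 1549, 937 and 1074. Both were lower in every old library than in either young one. Ccr1, a receptor for CCL3 and CCL5, fell by 1.41 on the log2 scale, and Cxcr4, the CXCL12 receptor that holds leukocytes in bone marrow, by 1.34. Without 3-month replicate 1 the log2 differences were -1.14 for C5ar1, -1.09 for Ccr1 and -1.30 for Cxcr4, and 0 of the 17 genes passed. The 5 receptors that fell were C5ar1, Ccr1, Cxcr4, Cxcr2, which belongs to the neutrophil list as well, and a receptor that is not reported here.

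Of 24 pattern recognition genes, 4 fell and 0 rose, against 3.10% of all genes that fell (median log2 -0.24). Tlr13 (chrX:106143204-106160493), a sensor of bacterial ribosomal RNA, fell from 6825 and 4719 to 2585, 2517, 2421 and 1986 (log2 -1.26, SE 0.20; limma, adjusted p = 0.00382). Nod2, a sensor of muramyl dipeptide, fell from 836 and 602 to 291, 233, 151 and 231. Myd88, the adaptor of most Toll-like receptors, and Irak4, the kinase it recruits, fell by 0.77 and 0.69 on the log2 scale. All 4 were lower in each old library than in both young ones, and none passed without 3-month replicate 1, where their log2 differences were -0.996, -1.45, -0.64 and -0.57.

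Of 22 integrin and adhesion genes 6 fell and 0 rose, and of 11 monocyte markers 4 fell and 0 rose, against 3.10% of all genes that fell (median log2 -0.13 and -0.74). Without 3-month replicate 1 the falls numbered 1 in each list. Itgal (chr7:127296260-127335138), the alpha chain of LFA-1, fell from 15001 and 16718 to 8534, 7580.5, 6969 and 5745. It passed in all alternatives (log2 -1.15, SE 0.16; limma, adjusted p = 0.00237, from 1.31e-08 to 0.0226). Selplg, the selectin ligand PSGL-1, fell by 0.94 on the log2 scale. Ace, angiotensin-converting enzyme, a marker of patrolling monocytes, fell from 2862 and 2789.5 to 915, 1107, 1178 and 807, and Chil3, a chitinase-like protein, from 35703 and 42066 to 18714, 9116, 9388 and 21407. Ace was called in all alternatives, and Chil3 was called in 8 of the 15.

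Interferon-stimulated genes were lower at 24 months. Of 34 genes of the type I interferon list 10 fell and 0 rose, against 3.10% of all genes that fell. A negative difference was seen in 28 of the 34 (median log2 -0.54, -0.41 without 3-month replicate 1). The list summed to 122 and 100.2 kilocounts at 3 months and 61.7 to 76 kilocounts at 24 months. Rsad2 (chr12:26442746-26456452), viperin, an antiviral radical-SAM enzyme, fell from 3017 and 2841 to 1209.7, 944, 679 and 502 (log2 -1.89, SE 0.30; limma, adjusted p = 0.00348, from 1.04e-06 to 0.0578 over the alternatives). The 24-month values spread widely, and the highest was still far below either young value. Rtp4, a chaperone that interferon induces, fell from 15499 and 10554 to 5324, 3736, 3261 and 3379.6, and Oasl2, an oligoadenylate synthetase-like protein, from 5795 and 4641 to 2213, 2326, 1814 and 1771. Oas2, an oligoadenylate synthetase, fell from 704 and 586 to 78.7, 163, 155 and 231. The smallest p of the list was that of Trim30a (chr7:104409025-104465193), a negative regulator of Toll-like receptor signals, which fell from 6167 and 8028 to 3239.8, 3253, 3111 and 2944. Slfn4 (chr11:83175186-83190216) and Slfn1, Schlafen genes that interferon induces in myeloid cells, fell from 9526 and 9178 to 2989.9, 2814, 2424 and 2915 and from 17297 and 14901 to 6039.6, 6115, 4021 and 4404. Trim30a was the 1 list member still called without 3-month replicate 1 (log2 -1.36), and Slfn1 and Slfn4, which are outside the list, were too. Trim30, Slfn and Oas genes belong to families of similar copies, so reads may be divided among relatives.

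The promoters of 2 of these genes are shown for the interferon-stimulated response element (ISRE), the site bound by interferon-activated factors. They are from RefSeq on GRCm38.p6 and run over the 150 bases before the transcription start, 5′ to 3′ on the gene's strand, with matches to GAAANNGAA on either strand in capitals. Oas3, an oligoadenylate synthetase, was chosen for display after its values were seen, and fell from 2239 and 2538 to 1221, 594, 713 and 916.
Rsad2, chr12:26456453-26456602, minus strand: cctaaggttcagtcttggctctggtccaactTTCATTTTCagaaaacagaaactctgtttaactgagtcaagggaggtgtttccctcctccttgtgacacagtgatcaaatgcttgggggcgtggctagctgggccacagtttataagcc
Oas3, chr5:120777660-120777809, minus strand: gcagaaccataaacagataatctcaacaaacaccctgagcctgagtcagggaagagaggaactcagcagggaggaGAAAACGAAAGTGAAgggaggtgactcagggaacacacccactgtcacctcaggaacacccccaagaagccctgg
The match of Rsad2 begins 119 bases before the start, and the overlapping matches of Oas3 begin 75 and 69 bases before it. Of the 34 genes of the list 23 had a promoter in the table, and 11 of them (47.8%) held a match within the 250 bases before the start, against 8.2% of all 27025 genes. Of the 8 genes called with a promoter in the table, 5 held one. Overlap with other motifs was not examined, and a match describes the letters only.

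MHC class II genes were higher at 24 months. Of 15 genes of the class II pathway 4 rose and 0 fell (1.88% of all genes rose), 13 had a positive difference, and the median log2 was 0.60 (0.59 without 3-month replicate 1, where 0 passed). Their sum was 932 and 846 kilocounts at 3 months and 1472 to 1597 kilocounts at 24 months. H2-Ab1 (chr17:34257689-34269419), the beta chain of I-A, rose from 142964 and 140910.0 to 248914, 259495, 251631 and 224486 (log2 0.79, SE 0.20; limma, adjusted p = 0.0343, from 4.74e-06 to 0.115 over the alternatives). H2-Aa, the alpha chain of I-A, rose from 91039 and 95176 to 151562, 156360.0, 157347 and 153793, and H2-Eb1, the beta chain of I-E, from 56825 and 64822 to 101793, 106858, 106548 and 93383. H2-Oa, a chain of the H2-O modulator of peptide loading that B cells carry, rose from 3832 and 3723 to 6534, 7489, 6562 and 6936. In all 4 genes every old library stood above both young ones, with little spread within either group. The 16 B cell markers, cells that also carry class II, summed to 114 and 162 kilocounts at 3 months and 116 to 217 kilocounts at 24 months, and 0 of the 16 passed in limma or edgeR (3 by unadjusted p, 0 by DESeq2). The 12 dendritic cell markers summed to 21.5 and 18.2 against 20.5 to 24.6 kilocounts, and 0 passed in limma or edgeR (4 by unadjusted p, 2 by DESeq2). Their part in the class II result was not tested.

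Class II promoters carry a conserved module that ends in a CCAAT box, bound by the factor NF-Y. The 150 bases before the start of 2 of the genes are shown, from RefSeq on GRCm38.p6 on the gene's strand, with matches to ATTGG on either strand in capitals.
H2-Aa, chr17:34287824-34287973, minus strand: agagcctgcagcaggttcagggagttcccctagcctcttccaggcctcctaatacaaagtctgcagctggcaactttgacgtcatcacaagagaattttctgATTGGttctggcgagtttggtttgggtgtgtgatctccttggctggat
H2-Eb1, chr17:34305717-34305866, plus strand: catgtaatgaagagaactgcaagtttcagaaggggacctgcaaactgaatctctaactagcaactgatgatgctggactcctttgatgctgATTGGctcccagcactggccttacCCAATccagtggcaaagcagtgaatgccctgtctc
The match begins 48 bases before the start in H2-Aa, and the matches begin 59 and 35 bases before it in H2-Eb1. Of the 11 genes of the list with a promoter there, 10 (90.9%) held ATTGG within 250 bases before the start, against 37.5% of all genes, and so did all 3 called genes that had one. The motif has 5 letters and is common by its length alone. The AP-1 motif TGANTCA was found before 0 of 21 immediate early genes with a promoter in the table, against 7.8% of all genes.

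Plasma cell genes were higher as well. Of 12 plasma cell markers 6 rose and 0 fell, against 1.88% of all genes that rose, and all 12 had a positive difference (median log2 0.98). The sum was 70.8 and 75.5 kilocounts at 3 months and 119.6 to 215 kilocounts at 24 months. Besides Sdc1, Jchain (chr5:88519809-88527891), which joins secreted IgM and IgA, rose from 48170.0 and 54238 to 103712, 87749.8, 175099 and 142143 (log2 1.26, SE 0.26; limma, adjusted p = 0.0128). Xbp1, the transcription factor of the unfolded protein response and of plasma cells, rose from 12906 and 9297 to 23009, 15634, 20006 and 19098, and Derl3, a component of endoplasmic reticulum (ER) associated degradation, from 54.1 and 312 to 958, 640.1, 614 and 999.99. The young value of Derl3 differed widely between replicates, and its log2 of 2.58 was 1.33 without 3-month replicate 1. Without that library Sdc1 and Xbp1 passed. Of 20 ER folding genes 3 rose and 1 fell (median log2 0.40), against 1.88% and 3.10% of all genes, and 1 rose and 0 fell without 3-month replicate 1. Creld2, an ER stress-induced disulfide isomerase, rose from 2915 and 3636 to 11110.4, 6084, 8381 and 10286 and Herpud1, which helps to clear misfolded proteins, from 8870.4 and 6631 to 12502, 10522, 12281 and 17075. Ddit3, the stress-induced transcription factor CHOP, fell from 1831 and 1365 to 846, 571, 569 and 615, opposite to the other 3. Xbp1 is a member of both the plasma cell and the ER list, so 1 of the 3 ER rises was already counted among the plasma cell rises. The part of plasma cell RNA in the ER result was not tested.

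Of the inflammasome genes followed from the study's title, Il1b passed, and Nlrp3 and Casp1 did not. Nlrp3 (chr11:59541568-59566956) stood at 1338 and 764 at 3 months and 663, 456, 463 and 341 at 24 months. All 4 old libraries lay below both young ones, yet the difference did not pass (log2 -1.11, SE 0.65; limma, adjusted p = 0.358, from 0.024 to 0.777 over the alternatives). The shared spread of this gene includes the Nlrp3-/- libraries, which stood at 1 to 3.61. It passed in 1 of the 15 alternatives, the fit of the wild-type table, with the smallest of these p-values, and not with the 6 wild-type libraries of the spleen table alone. Casp1, the protease that inflammasomes activate, stood at 2760.5 and 1522 and 3302, 2837, 2922 and 2167, and its groups overlapped. Il1b (chr2:129364570-129371139), the cytokine that Casp1 matures, fell from 21762 and 22903 to 14062, 12921, 9193 and 6167 (log2 -1.15, SE 0.27; limma, adjusted p = 0.0261, from 0.00124 to 0.141), and passed in 11 of the 15 alternatives. Of 20 inflammasome genes 3 fell and 0 rose, against 3.10% of all genes that fell, and 0 passed without 3-month replicate 1. Apart from Il1b they were Txnip, a thioredoxin-binding protein that can bind Nlrp3, from 18894 and 22712 to 10569, 12582, 8794 and 6783, and Nlrp12, a sensor that restrains inflammatory signals, from 2653 and 2234 to 1538, 1129, 584 and 637.

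Of 19 cytokine genes 1 rose and 3 fell, Il1b among them, against 1.88% and 3.10% of all genes. Without 3-month replicate 1 the rise alone passed. Il1rn, the antagonist of the IL-1 receptor, fell from 9071 and 5317 to 4003, 3087, 2674 and 2129, and Il15, which sustains natural killer cells, from 2056 and 1176 to 899, 553, 681 and 494. Il12b, the shared chain of IL-12 and IL-23, rose to 716, 355, 484 and 186 from 162 and 3.85, a young pair so far apart that its log2 of 3.79 was 6.33 without replicate 1. Of 17 chemokine genes 2 rose and 1 fell, and 0 passed without 3-month replicate 1. Ccl22, a ligand of CCR4, rose from 89.9 and 85.6 to 426, 391, 388 and 261, Cxcl16, a membrane-bound ligand of CXCR6, from 621 and 504 to 1587, 1392, 1662 and 953, while Ccl6, a myeloid CC chemokine, fell from 91946 and 67377 to 40504, 42233, 36680.4 and 25084. Of 16 genes of catecholamine breakdown and signalling, 1 rose and 0 fell, against 1.88% and 3.10% of all genes. The gene that rose was Aldh1a1, an aldehyde dehydrogenase, at 4.33 and 24.0 and then 129, 218, 468 and 117. Its call was lost without 3-month replicate 1. Maoa, monoamine oxidase A, stood at 2.17 and 50.02 and 40.8, 1.02, 1 and 7.41, with groups that overlapped (log2 -1.05, SE 1.55; limma, adjusted p = 0.755). Gdf3, a TGF-beta family member, overlapped too, at 94.2 and 117 and 157, 74.8, 190.4 and 136.

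Of 25 immediate early and AP-1 genes 1 rose and 2 fell, against 1.88% and 3.10% of all genes. Jun rose from 2562 and 1811 to 4686, 4228, 3789 and 3073, whereas Fosl2 fell as given above and Klf6, a zinc finger factor, fell from 19658 and 12783 to 9736, 11034, 7672 and 7110.1. Of 18 NF-kB genes 2 rose and 0 fell, namely Relb, the subunit of the non-canonical pathway, from 2027 and 1945 to 4088, 3904, 3731 and 2889, and Traf1, a TNF receptor adaptor, from 1028 and 1410.2 to 2271, 2426, 2265 and 1968. The 4 old libraries of both were above both young ones, at log2 differences of 0.87 and 0.89. Of 19 interferon gamma and GTPase genes 2 rose: Iigp1, a GTPase that attacks parasite vacuoles, from 150.5 and 316 to 2000.3, 842, 828 and 696, and Irf8, a factor of monocyte and dendritic cell fate, from 11385 and 11930.5 to 15833, 18322, 17312 and 15230.5. Of 16 MHC class I genes 2 rose, H2-Q7, a non-classical class I chain, from 1011 and 2370.1 to 3578, 3079.5, 3481 and 3344, and Tap2, a chain of the peptide transporter, from 2353 and 2957 to 5682, 4999, 3369.7 and 4954. Jun, Klf6, Relb, Traf1, Iigp1, Irf8, H2-Q7 and Tap2 did not pass without 3-month replicate 1. Of 8 cell cycle inhibitor and p53 genes 2 fell, Cdkn1b as given above and Lmnb1, a lamin of the nuclear envelope, from 1543 and 896 to 352, 431, 355 and 526.

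Resident macrophage genes did not pass. Of 10 red pulp macrophage markers 0 passed in limma or edgeR, with sums of 158 and 86.2 kilocounts at 3 months and 108 to 146 kilocounts at 24 months, so that the young pair spanned all old libraries. By unadjusted p 2 of the 10 passed, and 0 by DESeq2. Spic, the transcription factor of red pulp macrophages, stood at 7815 and 5266 and 10559.9, 10512, 8693 and 8014, with every old library higher (log2 0.55, SE 0.18; limma, adjusted p = 0.0915, from 0.0259 to 0.507 over the alternatives). Among markers of other cells, 6 of 19 erythroid entries fell, all of them globins, against 3.10% of all genes. Of these 6, Hbb-b2 and Hbb-bt, singled out after their values were seen, hold the same values in every library and are 1 measurement. With both counted, the list summed to 123 and 127 kilocounts at 3 months and 30.2 to 69 kilocounts at 24 months. Hba-a2, an alpha globin, fell from 30593 and 29849.9 to 16068, 7374, 8117 and 12509, and Hbb-b1, a beta globin, from 22016 and 25566 to 11265, 4969, 5789.99 and 10324. Globin genes are near-identical copies, so their shares of the reads are uncertain. Of 16 T cell markers 2 fell, against 3.10% of all genes. They were Lef1, from 1117 and 1361 to 337, 214, 360.5 and 323, and Tcf7, from 1272 and 1335 to 418, 719, 734 and 543, both transcription factors of naive T cells. Of 13 natural killer cell markers Gzma, a granule protease, fell from 3935 and 3586 to 811, 805, 1150.04 and 713 and Tbx21, the factor T-bet, rose from 82.3 and 193 to 499, 495, 368 and 559. Of 13 megakaryocyte markers 2 rose (1.88% of all genes rose), among them Gp1bb, a platelet receptor chain, from 338 and 267 to 1459, 1909.96, 1852 and 1032. Of 9 mast cell and basophil markers Kit rose, and Hdc (chr2:126593667-126619299), which makes histamine, fell from 13762 and 10388 to 2963, 2596, 1973 and 4015 (log2 -2.10, SE 0.25; limma, adjusted p = 0.000512), in all alternatives. Without 3-month replicate 1, 0 erythroid, T cell and natural killer cell markers passed.

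The 14 largest rises were in genes with 0 to 148 recovered reads over both young libraries, with values of 1 taken as 0 reads. Most of their folds thus rest on few young reads. In 3-month replicate 2, where 1 read scales to 0.962, a value of 1 can also be 1 read. Trabd2b (chr4:114406724-114615098), a metalloprotease that acts on Wnt proteins, had 1 recovered read over both young libraries and stood at 147, 238, 313 and 156 at 24 months. With the value of 1 in 3-month replicate 2 taken as 0 reads, the ratio was 425 (76.1 to 16800). The bounds are an exact 95% interval of counting error only. The same held for Prlr, the prolactin receptor, at 277, 124, 117 and 203, with a ratio of 350 (62.6 to 13840). Fut1, a fucosyltransferase of blood group antigens, reached 233, 84.0, 74.5 and 216, a ratio of 295 (52.7 to 11660). Each of these 3 was called in all alternatives (log2 6.64, 6.38 and 6.04).

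Tspan7, a tetraspanin, stood at 313, 151, 130.3 and 48.1 against 1 recovered young read, and Gm1965 at 84.6, 358, 62.6 and 117 against 1 recovered young read. Mmp23 (chr4:155650655-155653384), a membrane-anchored metalloprotease, stood at the lowest value of 1 in both young libraries, which is 0 or 1 read in replicate 2. At 24 months it stood at 214, 60.4, 128 and 70.4, with a mean 38.5-fold the mean floor of 3 reads per young library. Chst1, a keratan sulfate sulfotransferase, stood at 1 and 14.4 and 373, 334, 383 and 347. Cpne4, a calcium-dependent membrane-binding copine, stood at 18.4 and 31.7 and 341, 528, 309 and 271. The old libraries of Chst1 were close to each other, while those of Gm1965 ranged from 62.6 to 358.

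Mef2b, a MADS-box transcription factor, stood at 1 and 46.2 and then 689, 486, 749 and 358. Pycr1, an enzyme of proline synthesis, stood at 1 and 30.8 and then 333, 295, 415 and 368, and Sdc2, a syndecan, at 1 and 66.4 and then 329, 296, 228 and 306. In all 3 the young libraries disagreed, at 1 in replicate 1 and higher in replicate 2. Their log2 differences of 5.82, 5.46 and 4.63 were 3.54, 3.46 and 2.10 without replicate 1. The young pair of Art3, an ADP-ribosyltransferase family member, differed the other way, at 20.6 and 1, against 191, 270.4, 224 and 364. Mmachc, which processes vitamin B12, stood at 1.08 and 18.3 and then 254, 180.2, 149 and 81.5. Gpm6a, a membrane glycoprotein, stood at 1 and 3.85 and 163, 13.3, 372 and 181, with 24-month replicate 2 far below the other old libraries.

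The largest falls were smaller than the largest rises. Myl2, a regulatory myosin light chain of heart, fell from 202 and 135 to 6.97, 25.6, 19.5 and 9.26 (log2 -3.52, SE 0.94; limma, adjusted p = 0.0445, from 0.00455 to 0.267 over the alternatives), and Egln3, an oxygen-sensing prolyl hydroxylase, from 161 and 278 to 7.97, 12.3, 28.8 and 47.2. Acta2, smooth muscle actin, fell from 1821 and 1426 to 308, 289, 291 and 379. Both Myl2 and Acta2 are known from muscle. Steap4, a metalloreductase, fell from 4389.7 and 2384 to 1006, 846, 249.6 and 1038, with the lowest value in 24-month replicate 3. G0s2, an inhibitor of the lipase ATGL, fell from 2951 and 2621 to 684, 702, 1002 and 553. Foxd4, a forkhead factor, fell by 1.91 on the log2 scale, and 2010002M12Rik (chr19:34617049-34640743), which lies next to Ifit1, by 2.08.

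Did the age difference in spleen differ from that in VAT? It was tested as an interaction in the table of 13 wild-type libraries, as the spleen difference minus the VAT difference. Of 13702 genes tested 375 (2.74%) passed, 188 higher and 187 lower, and 135 passed without 3-month spleen replicate 1. The count ranged from 123 without 3-month VAT replicate 3 to 655 without 3-month spleen replicate 2. Interferon genes went opposite ways: 25 of 34 (73.5%) were lower with age in spleen and higher in VAT, as were 22.2% of all genes, and the interaction passed for 17, all lower. The median log2 was -0.56 in spleen and 0.61 in VAT in this table. Rtp4 stood at 1956, 1362 and 1716 in 3-month VAT and 2973, 2706, 3616 and 4672 in 24-month VAT, while its spleen mean fell from 12117 ± 3459 (SD, n = 2) to 3603 ± 879.9 (SD, n = 4). Its interaction was -2.79 (SE 0.33; limma, adjusted p = 0.00103, from 0.000628 to 0.00623 over the alternatives). For Rsad2 the interaction was -2.52 (limma, adjusted p = 0.00309), with VAT at 1101, 817 and 745 and then 1211, 1329, 1268 and 1583, where the VAT difference alone did not pass.

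Class II genes showed the reverse. Of 15 genes 11 (73.3%) were higher with age in spleen and lower in VAT, as were 19.6% of all genes, and the interaction passed for 7, all higher. H2-Ab1 fell in VAT from 437809 ± 15839 (SD, n = 3) to 255242 ± 39099 (SD, n = 4) and rose in spleen from 131727 ± 3687 (SD, n = 2) to 225908 ± 13851 (SD, n = 4). Its interaction was 1.57 (SE 0.24; limma, adjusted p = 0.00357, from 0.00232 to 0.014 over the alternatives). The H2-Ab1 means of the tissues were thus closer at 24 months than at 3 months. Ccl22 likewise rose in spleen and fell in VAT, from 3419, 4842 and 2644 to 852, 1794, 1401 and 1163, with an interaction of 3.50. C5ar1 fell in spleen and rose in VAT, from 38977, 38717 and 22300.2 to 54050.0, 63457, 50555 and 51955 (interaction -2.13). Sdc1 in VAT stood at 2471, 3356 and 1795 and then 1616, 1948, 1432 and 2036 (interaction 3.31, limma, adjusted p = 0.00103). It was the only 1 of the 12 plasma cell markers whose interaction passed, against 2.74% of all genes. The median log2 of these markers was 0.96 in spleen and 0.70 in VAT, where 4 were called higher and 1 lower. C130026I21Rik rose in both tissues, in VAT from 6.45, 26.0 and 12.8 to 671, 796, 986 and 1472, and its interaction of -1.11 did not pass (SE 0.63; limma, adjusted p = 0.404). The tissues may share animals, which the labels do not say.

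**Figure D4:**
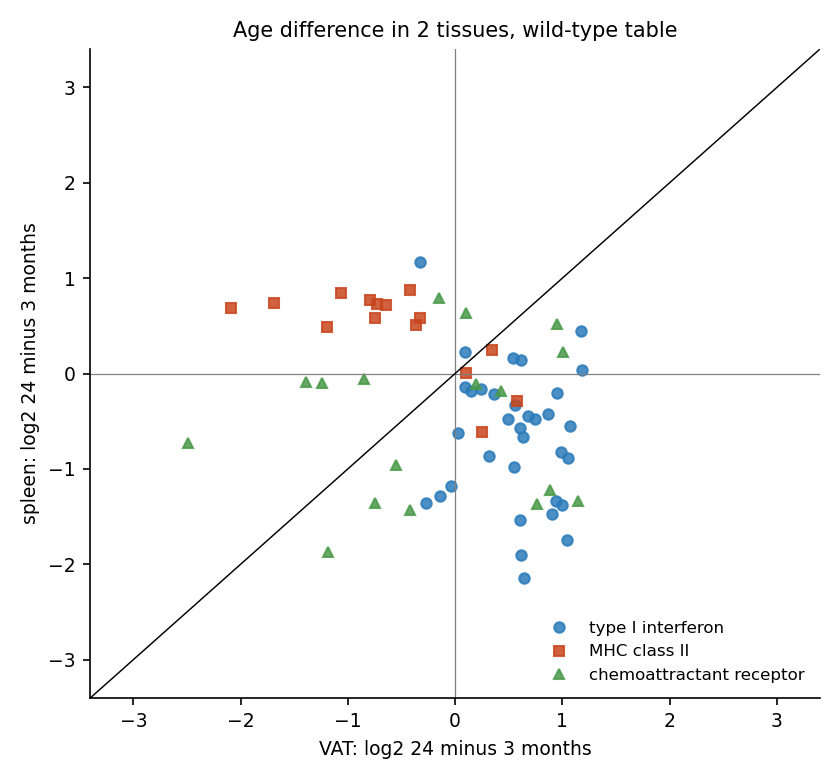
Log2 difference between 24 and 3 months in VAT (horizontal) and spleen (vertical) for members of the type I interferon (34), MHC class II (15) and chemoattractant receptor (17) lists in the wild-type table; the diagonal marks equality. Interferon genes lie mostly to the lower right (25 of 34) and class II genes mostly to the upper left (11 of 15).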

How the data were processed

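Poly(A) RNA of sorted macrophages was sequenced from strand-specific libraries, per the labels' protocols. The submitters' processing notes name CASAVA 1.8.2, TopHat, Partek, DESeq2 and the mm10 build. The counting and strand settings are not given in the sources used here. The deposited values are normalised counts, a signal in which the authors divided gene counts by size factors. The lowest value is 1, also in libraries where 1 read scales to less than 1. In those libraries a value of 1 can stand for 0 or 1 read. All values of 1 were taken as 0 reads when reads were recovered. Dividing by the value of 1 read gave whole reads (within 0.05 reads) for at least 99.815% of spleen-table values checked.

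Log2(value + 1) of 13053 genes with a mean of at least 10 was fitted with limma 3.58.1 (R 4.3.3) with a trend and 1 mean per group; all 9 libraries of the spleen table shared the spread. Fold changes are on this scale, which understates changes of low genes. The tissue interaction used the wild-type table; the tables were normalised separately, and 77794 of their 77904 shared entries held equal reads. Alternatives included edgeR 4.0.16 and DESeq2 1.42.0 on recovered reads. The limma and edgeR fits were also run on simulated data, and the outcome is not given here. Intervals and floors cover counting error only.

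The comparison, its 40 lists and the tests were chosen with earlier results of these data known. Named genes are Nlrp3, Casp1, Il1b, Maoa and Gdf3, the 14 largest rises and falls among called genes that did not overlap with a mean of at least 100 in the higher group, up to 4 members of each list and the 10 smallest p-values in each direction. Adgre1, Oas3 and A530032D15Rik are outside this rule and were chosen after their values were seen. Some genes that the rule names are not reported here.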

Additional observations from a re-analysis of the deposited data

Results flagged for a closer look

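Of 148 groups of 4 libraries examined, 7 held a library whose gap to its nearest neighbour, as a share of the group's range, was above Dixon's 95% critical value; chance gives about 1 in 20 such groups. In 5 genes 24-month replicate 1 was the highest of the old spleen libraries, at a share of 0.833 for Cdkn1b, 0.834 for Ddit3, 0.888 for Iigp1, 0.839 for Maoa and 0.981 for Myd88. It was also the highest in the natural killer cell list sum, at 0.892. In the general macrophage list sum, 24-month replicate 4 was the lowest, at 0.847.

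The age difference differed between spleen and VAT, by the limma interaction, for 37 of the 108 genes named, against 2.74% of all genes tested. The genes were named for their age difference in spleen, so the share is a description. Many of the 37 did not pass in every alternative, among them Il15, Selplg, Myd88, Cdkn1b, Steap4, Aldh1a1 and Art3. Others, such as Rtp4 and Sdc1, passed in all of them. As log2 spleen difference minus log2 VAT difference, the value was below 0 for 21 genes: 2010002M12Rik -4.94, Ace -2.33, C5ar1 -2.13, C5ar2 -2.03, Cdkn1b -1.12, Clec4d -2.29, Csf3r -2.02, Emb -0.79, Il15 -1.56, Myd88 -0.95, Oas2 -2.78, Oas3 -2.14, Oasl2 -2.38, Rsad2 -2.52, Rtp4 -2.79, Selplg -0.86, Slfn1 -2.44, Steap4 -2.76, Tlr13 -2.003, Trim30a -1.15 and Txnip -1.74. It was above 0 for 16 genes: Aldh1a1 3.64, Art3 6.69, Ccl22 3.50, Chst1 5.97, Creld2 1.38, Gm1965 5.67, H2-Aa 1.36, H2-Ab1 1.57, H2-Eb1 1.46, Mmp23 4.36, Relb 1.26, Sdc1 3.31, Slc3a2 1.55, Trabd2b 6.18, Traf1 1.60 and Tspan7 7.13.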

How the results depend on the processing

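All 650 genes called for age kept their direction in each of the 15 alternatives in which they were tested. The groups of 648 of them did not overlap, so leaving out a library could not reverse these. The count was 1244 with DESeq2, 526 with edgeR, 850 in the wild-type table and 543 after quantile normalisation, and ranged from 69 (without 3-month replicate 1) to 679 with a library left out, at 312 without 24-month replicate 3. With the replicate block it was 468 for age and 328 for the interaction, and the block took the chemoattractant receptor calls from 5 to 3. Deviations of same-numbered spleen libraries from their group means correlated at -0.023 to 0.048. With so few libraries per group, these correlations cannot tell whether equal numbers pair the libraries. Leaving out a library moved the interaction count of 375 to between 123 and 655. Without 3-month VAT replicates 1 and 2 it was 206 and 180, without 24-month VAT replicates 2 and 3 212 and 247, and without 24-month spleen replicates 2 and 3 249 and 224.

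Of the lists, neutrophil calls went from 10 to 6 in the wild-type table and Fc and ITAM-linked receptor calls from 10 to 6 after quantile normalisation. MHC class II calls went from 4 to 7 with a mean of at least 100, 8 after quantile normalisation and 9 with DESeq2. With a library left out, the calls ranged from 0 to 10 for neutrophil, 1 to 12 for Fc and ITAM-linked receptor, 0 to 5 for chemoattractant receptor, 1 to 9 for type I interferon, 0 to 4 for MHC class II and 2 to 6 for plasma cell genes. The lowest was without 3-month replicate 1 for each list; the cause was not tested.

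Of 102 named genes called, 27 passed in each alternative and 72 lost the call without 3-month replicate 1. The direction changed in 3 uncalled genes: Adgre1 (-0.125 without 3-month replicate 2, 0.606 without replicate 1), Maoa (0.957 without 3-month replicate 2, -3.054 without replicate 1) and Gdf3 (-0.53 under the replicate block). With 2 young libraries the group spread rests on 1 difference, and genes at few reads are limited by depth.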

Other observations

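Of 22 iron and haem genes 1 rose and 3 fell, against 1.88% and 3.10% of all genes. Cp, ceruloplasmin, a copper ferroxidase, stood at 10.8 and 49.1 at 3 months and rose to 558, 228, 155 and 139.8 at 24 months. Lcn2, lipocalin 2, which binds iron siderophores and is a neutrophil granule protein, fell by 1.49 on the log2 scale, and Nfe2l2, the oxidative stress factor NRF2, by 0.72. Without 3-month replicate 1 none of the 3 passed.

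Of 18 glycolysis genes 1 fell, against 3.10% of all genes: Slc16a3, the lactate exporter MCT4, from 5570 and 4412 to 2403, 2144, 1811 and 2179. Of 24 lysosome, 20 phagocytosis, 19 cholesterol synthesis and 25 cell cycle genes 0 passed in the limma fit, with medians of 0.07, 0.22, 0.26 and -0.10 on the log2 scale against 0.03 over all genes tested. In the same order, 8, 1, 6 and 4 passed by unadjusted p, 0 in each by edgeR and 2, 0, 0 and 2 by DESeq2.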
